A study of Mus musculus with 8 samples.

Results

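The 10 genes described here are Yap1 and Wwtr1, which encode the coactivators YAP and TAZ, Tead1 to Tead4, the TEAD DNA-binding factors they work with, the angiomotin genes Amot, Amotl1 and Amotl2, and Vgll4, which encodes a TEAD cofactor. Their members are the 19 probe sets that the platform's annotation gives to exactly one of these names, of 45037 probe sets without controls, which carry 18193 single gene names in all. A probe set is a group of short oligonucleotides that together read one transcript region, and each is reported separately. The data are 1-colour arrays of whole wild-type mouse embryos of the B6D2F1 strain, collected at the 1-cell stage and cultured in KSOM medium, with 4 arrays of 8-cell embryos (embryonic day 2.5, 66 h after human chorionic gonadotropin) and 4 of blastocysts (day 4.5, 120 h). The comparison asks which transcripts of this group differ between an embryo before and an embryo after the outer epithelium and the cavity have formed.

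YAP and TAZ cannot bind DNA themselves and act on transcription through TEAD factors. The kinases LATS1 and LATS2 of the Hippo pathway phosphorylate YAP and TAZ, which keeps them out of the nucleus. In the mouse embryo YAP is nuclear in outer cells, where TEAD4 is needed for the trophectoderm gene Cdx2, while angiomotin at the junctions of inner cells promotes LATS activity. That control works through phosphorylation and localisation of proteins, which messenger RNA arrays do not read.

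Signals had been scaled per array by the authors, and array medians lay between 47.1 and 56.0. Each difference is the blastocyst mean less the 8-cell mean of log2(signal + 16), given with its standard error (SE). Its p-value from limma was adjusted (Benjamini-Hochberg) over the 28227 probe sets that were tested. Of 17 tested trophectoderm markers 16 were higher in blastocysts, and 11 of 11 tested genes of the egg and early stages were lower. Over all genes at their brightest probe set 36.9% were higher and 33.6% lower. Elf5 and Gjb5 were above the array's 40th percentile on 0 8-cell arrays, and Zp1, Bmp15, Oosp1, Nlrp14 and Omt2b on 0 blastocyst arrays. These passed the filter through 1 stage and had to differ, so the counts do not test the labels. Of 12 inner cell mass and epiblast markers 6 were higher, 4 lower and 2 not called. Of 12 primitive endoderm markers 10 were higher and 2 lower (Gata4 and Gata6). Sox17 and Lama1 of that list were above the 40th percentile on 0 8-cell arrays and so had to differ. The summed signal of 11 measured cumulus and granulosa cell markers was 377.5 to 619.2 on the 8-cell arrays and 368.6 to 465.2 on the blastocyst arrays. For 10 measured blood and fibroblast markers the sums were 358 to 460.5 and 278 to 385.5. Of the cumulus and granulosa markers 5 passed the filter, with 1 higher (Cyp11a1), 1 lower (Foxl2) and 3 not called. Foxl2 and Star were above the array's 40th percentile on all 4 arrays of each stage, whereas Amh was above it on 0 arrays. Inha and Cyp11a1 were above it on 1 8-cell array and 4 blastocyst arrays, and Fshr on 1 and 3. Of the blood and fibroblast markers 5 passed, with Thy1 (from 11.9 to 111) and Pdgfrb higher, Cd52 (from 140 to 29.3) and Pecam1 (from 122 to 25.1) lower, and Cdh5 not called. Thy1 and Pdgfrb were above the 40th percentile on 0 8-cell arrays and 4 blastocyst arrays. Both passed the filter through the blastocyst arrays and so had to differ. Ptprc, which marks blood cells, was above the 40th percentile on 0 8-cell arrays and 1 blastocyst array. Hba-a1 of the same list was above it on 0 8-cell arrays and 3 blastocyst arrays. The part of such cells in the results was not tested. Whether each array holds its own pool of embryos is not stated, and the p-values therefore measure only a spread between samples that may be technical. In whole embryos, fewer cells of a type and less RNA per cell cannot be told apart.

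Promoter sequences were available for 8 of the 10 genes, with 11 annotated starts, from RefSeq on the mouse build GRCm38.p6. Each covers 250 bases before to 50 bases after a start and was searched on both strands for GGAATG, the core letters bound by TEAD factors, and for GCCNNNGGC, letters bound by AP-2 factors such as AP-2 gamma, the Tfap2c protein that the series is about. The TEAD letters were found for 5 genes (Yap1, Wwtr1, Vgll4, Amotl2 and Tead3), the AP-2 letters for 3 (Yap1, Tead2 and Tead3) and neither for 2 (Amot and Amotl1). Over all 27025 genes in the table, 16.6% had the TEAD letters and 18.5% the AP-2 letters in a promoter. A match describes the letters of the window and is neither a measured site nor a cause of the values below. The 250 bases before the start are shown for 4 genes that hold the TEAD letters and had at least 1 probe set called between the stages, with matches in capitals. The Wwtr1 sequence belongs to the first of its 2 overlapping starts.
Yap1, chr9:8004597-8004846, minus strand: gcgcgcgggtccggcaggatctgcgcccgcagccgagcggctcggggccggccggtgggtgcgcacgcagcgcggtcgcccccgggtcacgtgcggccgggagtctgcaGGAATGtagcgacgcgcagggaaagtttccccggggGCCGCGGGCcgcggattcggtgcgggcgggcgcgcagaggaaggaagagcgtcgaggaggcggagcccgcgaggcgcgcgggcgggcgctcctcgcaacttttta
Wwtr1, chr3:57575911-57576160, minus strand: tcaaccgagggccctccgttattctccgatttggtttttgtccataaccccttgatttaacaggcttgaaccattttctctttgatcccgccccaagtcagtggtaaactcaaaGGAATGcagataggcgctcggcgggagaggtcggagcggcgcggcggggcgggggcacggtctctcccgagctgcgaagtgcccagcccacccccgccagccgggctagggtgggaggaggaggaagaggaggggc
Amotl2, chr9:102717554-102717803, plus strand: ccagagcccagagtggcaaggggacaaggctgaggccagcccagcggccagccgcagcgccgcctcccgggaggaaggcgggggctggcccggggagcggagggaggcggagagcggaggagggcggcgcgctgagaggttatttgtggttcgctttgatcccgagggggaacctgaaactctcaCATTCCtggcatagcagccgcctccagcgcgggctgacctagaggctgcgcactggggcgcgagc
Vgll4, chr6:114969204-114969453, minus strand: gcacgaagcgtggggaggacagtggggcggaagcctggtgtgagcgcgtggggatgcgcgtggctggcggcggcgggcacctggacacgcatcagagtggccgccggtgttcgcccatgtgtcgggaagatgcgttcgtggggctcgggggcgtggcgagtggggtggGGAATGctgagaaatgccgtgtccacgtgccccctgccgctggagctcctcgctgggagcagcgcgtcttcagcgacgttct
The TEAD letters begin at base -141 from the start in Yap1, -136 in Wwtr1, -65 in Amotl2 and -82 in Vgll4. The second capital run in Yap1 is the AP-2 match, at base -105. In these 4 sequences the letters read GGAATG for Yap1, Wwtr1 and Vgll4, and CATTCC, the same letters on the other strand, for Amotl2. The promoter of Tead3 at its second start held 3 matches to the TEAD letters.

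Of the 19 probe sets, 18 passed the filter on low signal, and at least 1 probe set of each of the 10 genes was tested. Between the stages 4 of the 18 were higher in blastocysts and 8 were lower at an adjusted p under 0.05 (limma). Over all 28227 tested probe sets 33.6% were higher and 32.8% lower, together 66.4%, so the share of the group that changed is close to the background and is not a result about these genes. The stages did not overlap for 13 of the 18, against 61.2% of all tested probe sets. The median difference of the 18 was -0.23, and that of all tested probe sets was -0.01. The genes differed in direction: Tead1, Tead2 and Amotl2 rose and Tead4, Vgll4 and most probe sets of Wwtr1 fell. All tested probe sets also split almost evenly between higher and lower, so the mix of directions is not a result about these genes either.

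**Figure D1:**
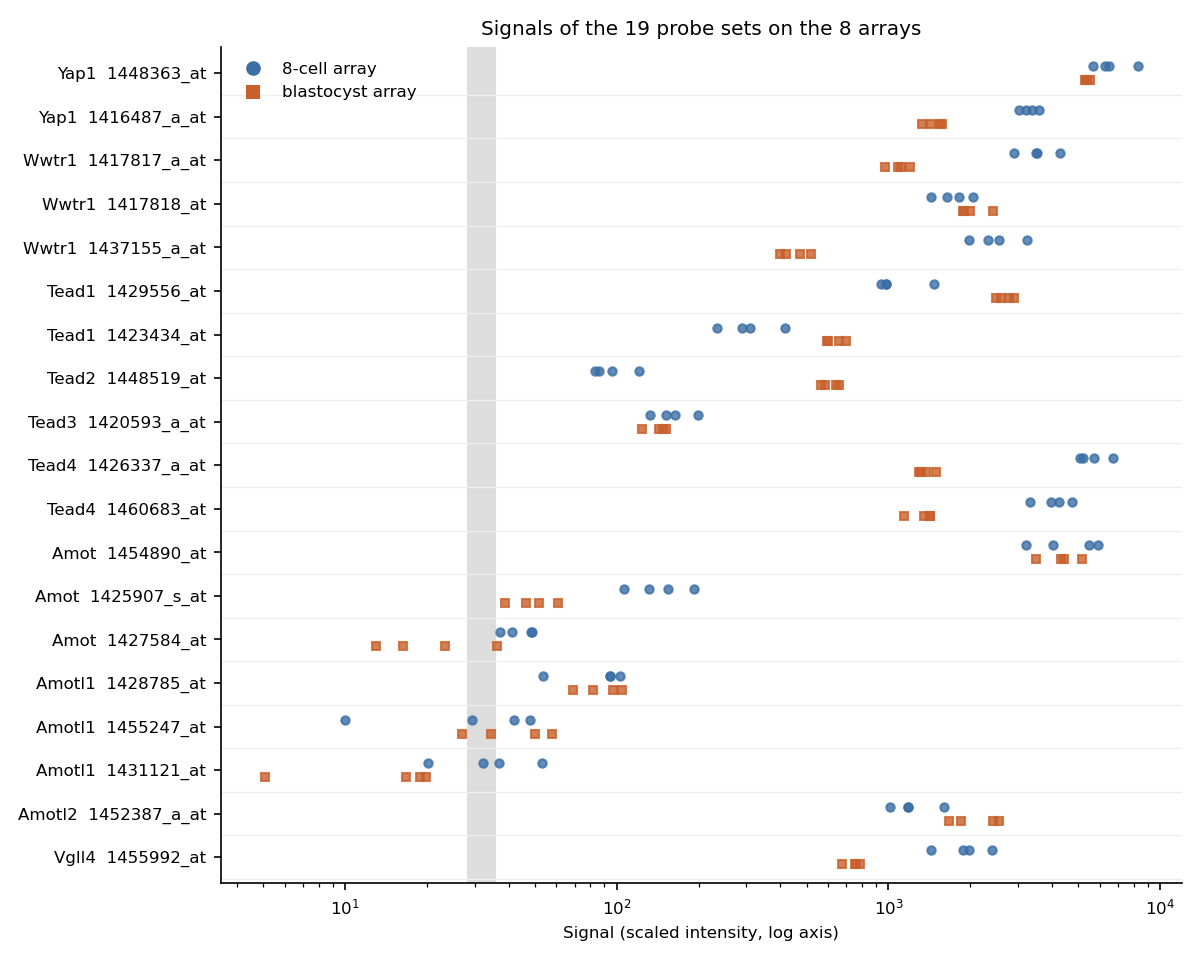
Signals of the 19 probe sets (rows) on the 4 8-cell arrays (blue circles) and the 4 blastocyst arrays (orange squares), on a log axis of scaled intensity; the grey band spans the 40th percentile of the 8 arrays. Tead4 and Vgll4 signals lie further left in blastocysts, Tead1 and Tead2 further right, and the probe sets of Wwtr1 do not all move together.

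Yap1 encodes the coactivator YAP and was read by 2 probe sets. The brighter, 1448363_at, gave 6260, 6490, 8311 and 5658 on the 8-cell arrays and 5333, 5514, 5280 and 5397 on the blastocyst arrays. All 8-cell arrays lay above all blastocyst arrays, but by a small margin. The difference of -0.30 (SE 0.15, 95% interval -0.62 to 0.03) did not pass (limma, adjusted p = 0.0974). It passed with an intensity trend and robust estimation (adjusted p = 0.0247) and without 8-cell replicate 4 (-0.37, adjusted p = 0.0497). On the other probe set, 1416487_a_at, the 8-cell values were 3370, 3204, 3017 and 3585 and the blastocyst values 1328, 1570, 1550 and 1435. There the stages were far apart, and the signal fell 2.23-fold (-1.16, SE 0.13, limma adjusted p = 2.45e-05). Both probe sets were designed from the same transcript record in the platform's annotation.

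Wwtr1 encodes TAZ, the relative of YAP that shares its TEAD and LATS partners, and its 3 probe sets were split. The brightest, 1417817_a_at, gave 3496, 4294, 2893 and 3535 in 8-cell embryos and 969.5, 1200, 1088 and 1116 in blastocysts. It fell 3.20-fold (-1.68, SE 0.15, limma adjusted p = 6.81e-06). Probe set 1437155_a_at gave 2333, 3233, 1981 and 2546 and then 400.2, 474.4, 519.3 and 420.2, a fall of 5.35-fold (-2.42, SE 0.17, limma adjusted p = 1.37e-06). For both, the 8-cell arrays stood well above the blastocyst arrays. Probe set 1417818_at did not follow them, with 1819, 2056, 1435 and 1648 in 8-cell embryos and 1886, 1999, 1901 and 2430 in blastocysts. Its stages overlapped, and the difference of 0.24 (SE 0.16, 95% interval -0.11 to 0.59, limma adjusted p = 0.196) did not pass. Like the Yap1 pair, 1417817_a_at and 1417818_at carry the same accession in the annotation.

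TEAD factors bind DNA for YAP and TAZ, and the 4 genes of the family went different ways. Tead4, the member known to be required for trophectoderm in the mouse, fell on both of its probe sets. On 1426337_a_at it gave 5054, 5697, 5219 and 6684 in 8-cell embryos and 1370, 1500, 1313 and 1299 in blastocysts. Probe set 1460683_at gave 3308, 4240, 3970 and 4720 and then 1426, 1350, 1424 and 1139. In each case the lowest 8-cell array was more than the highest blastocyst array. The falls were 4.08-fold (-2.03, SE 0.14) and 3.01-fold (-1.59, SE 0.15), with limma adjusted p of 9.41e-07 and 9.75e-06.

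Tead1 rose on both of its probe sets. On 1429556_at the 8-cell arrays gave 979.5, 1472, 938 and 982.9 and the blastocyst arrays 2770, 2601, 2887 and 2486, and replicate 2 stood apart among the 8-cell arrays. The rise was 2.48-fold (1.31, SE 0.17, limma adjusted p = 7.26e-05). On the dimmer 1423434_at the values were 233.9, 414.5, 308.6 and 289.8 and then 699.4, 597.6, 592 and 657.5, a rise of 2.03-fold (1.02, SE 0.18, limma adjusted p = 0.000553). Replicate 2 was again the highest 8-cell array, and the stages did not overlap. Tead2, known from early embryos and neural tissue, was read by 1 probe set, 1448519_at. It gave 86.4, 96.1, 83.3 and 121 in 8-cell embryos and 564.7, 582, 659.6 and 643.5 in blastocysts. Every blastocyst array was far above every 8-cell array, and the rise of 5.61-fold (2.49, SE 0.14, limma adjusted p = 3.89e-07) was the largest among the 18 tested probe sets. Tead3, a member known from placenta, showed no such separation on 1420593_a_at, with 132.5, 198.8, 152.2 and 163.6 in 8-cell embryos and 142.7, 148.5, 151.7 and 123.7 in blastocysts. Its difference of -0.16 (SE 0.15, 95% interval -0.50 to 0.17, limma adjusted p = 0.355) did not pass, and it turned to 0.08 when arrays were scaled to their spike-in controls.

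Vgll4 encodes a protein that competes with YAP for TEAD factors, and it fell. Its probe set 1455992_at gave 1434, 2403, 1982 and 1879 in 8-cell embryos and 787.4, 756.2, 759.2 and 672.5 in blastocysts. The blastocyst arrays were close together and all below the 8-cell arrays. The change was 2.52-fold lower (-1.33, SE 0.17, limma adjusted p = 6.73e-05).

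Angiomotins are scaffold proteins of cell junctions and actin that bind YAP and TAZ. Amot, the X-linked member needed for Hippo activity in inner cells, had a bright probe set that did not separate the stages and a pair of dim ones that did. The bright 1454890_at gave 5895, 5460, 3197 and 4017 in 8-cell embryos and 4304, 4439, 3491 and 5145 in blastocysts. All blastocyst values lay within the range of the 8-cell values, and the difference was -0.07 (SE 0.22, 95% interval -0.55 to 0.42, limma adjusted p = 0.800). Its sign changed under each of the 3 other scalings and in 3 of the 8 fits without 1 array, and it did not pass in any of the 20 alternatives (limma adjusted p from 0.322 to 0.969). Probe set 1425907_s_at gave 191.9, 131.1, 154.3 and 106 and then 38.66, 51.72, 46.16 and 60.72. It fell 2.45-fold (-1.29, SE 0.19, limma adjusted p = 0.000183). That size depends on the added 16, with -1.53 when 1 was added and -0.88 when 64 was added. The dimmest Amot probe set, 1427584_at, gave 48.8, 48.2, 41.3 and 37.2 in 8-cell embryos and 16.35, 13.04, 23.42 and 36.34 in blastocysts, where only 1 of 4 arrays was above the 40th percentile, so it passed the filter through the 8-cell arrays. Its highest blastocyst array nearly reached its lowest 8-cell array, and the size of the fall (-0.68, SE 0.19, limma adjusted p = 0.0108) depends on the added 16. It did not pass with spike-in scaling (-0.49, adjusted p = 0.107).

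Amotl2, described elsewhere as a target of YAP as well as its binding partner, rose. Its 1 probe set, 1452387_a_at, gave 1012, 1607, 1185 and 1182 in 8-cell embryos and 2430, 1854, 2554 and 1664 in blastocysts. The lowest blastocyst array stood only slightly above the highest 8-cell array, and the rise of 1.69-fold (0.76, SE 0.20, limma adjusted p = 0.00628) was the smallest among the 4 called rises. Amotl1 was dim throughout. On 1428785_at it gave 94.7, 102.7, 94.4 and 53.4 in 8-cell embryos and 68.99, 81.49, 104.8 and 97.03 in blastocysts. The stages overlapped, and the difference was 0.04 (SE 0.20, 95% interval -0.41 to 0.49, limma adjusted p = 0.866). On 1455247_at, with values of 10 to 48 and 27.06 to 57.73, the difference was 0.32 (SE 0.29, limma adjusted p = 0.357). The last probe set, 1431121_at, was the member left out by the filter, with 20.2 to 53.2 in 8-cell embryos and 5.055 to 19.84 in blastocysts.

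**Figure D2:**
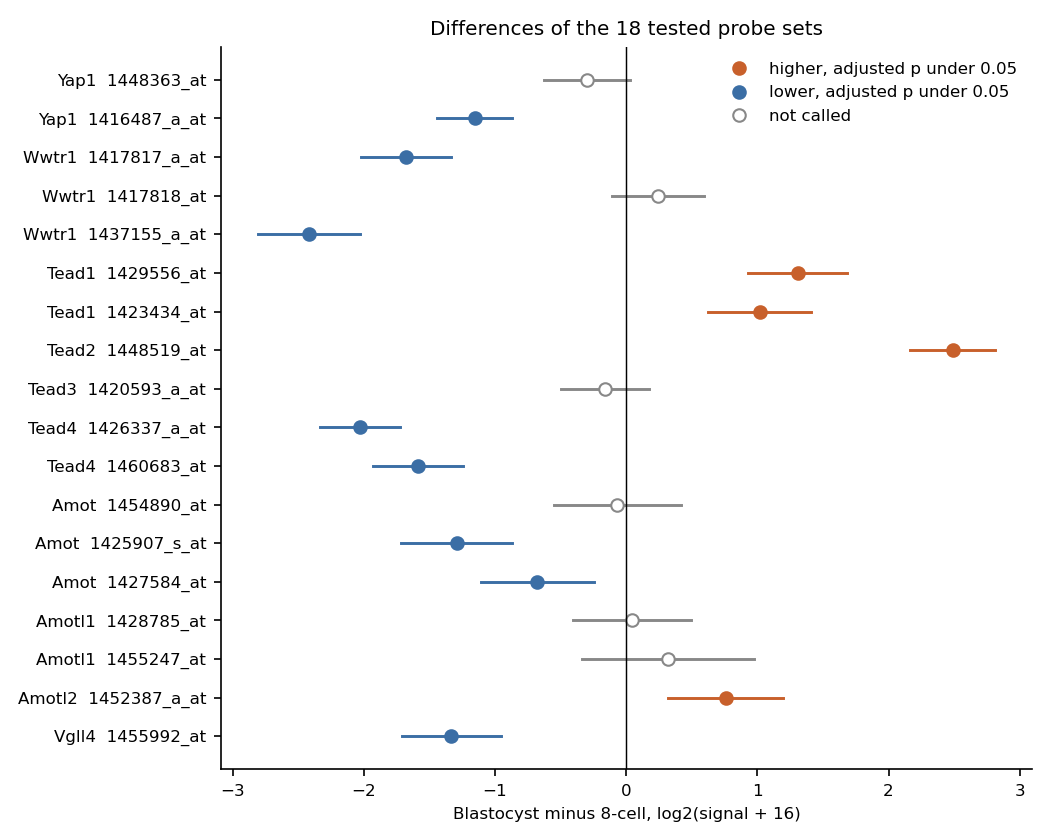
Blastocyst minus 8-cell differences on the log2(signal + 16) scale for the 18 tested probe sets, with bars for the 95% interval of limma; filled circles passed an adjusted p of 0.05 (orange higher, blue lower) and open circles did not. Tead2 has the largest rise (2.49) and a Wwtr1 probe set the largest fall (-2.42), while other probe sets of Yap1, Wwtr1 and Amot cross 0.

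Whether relatives changed unequally was tested on the brightest probe set of each gene, as the within-array log2 difference between both genes, with an exact two-sided permutation test over the 70 assignments of the 8 arrays. Of 10 pairs, 7 passed, each at the smallest p that 4 against 4 arrays can give (exact permutation p = 0.0286, adjusted p = 0.0408 over the 10 pairs). All 6 pairs of TEAD genes were among them, but they reuse the probe sets of 4 genes and are not independent. At this smallest p the adjustment lets a pair pass only when several pairs reach it, so the passes hang together. How many pairs of other genes would pass was not computed. Of all tested genes 70.5% were called at their brightest probe set, so the count is not a result about these families. Tead2 rose relative to Tead4 by 4.52 log2 units, with a within-array SD of 0.05 in 8-cell embryos and 0.18 in blastocysts, and Tead1 rose relative to Tead4 by 3.34. Tead2 also rose relative to Tead1, by 1.18 log2 units when read in that order (Tead1 minus Tead2 gave -1.18). Tead3, whose own difference did not pass, fell relative to Tead1 (Tead1 minus Tead3 gave 1.47) and rose relative to Tead4 by 1.86. Yap1 minus Wwtr1 gave 1.38 on the brightest probe sets, where the Wwtr1 fall passed and the Yap1 difference did not. Other probe sets gave the opposite order (-1.16 for Yap1 1416487_a_at and 0.24 for Wwtr1 1417818_at), so no order of the genes can be read. No pair of angiomotin genes passed: Amot minus Amotl2 gave -0.83 and Amotl1 minus Amotl2 gave -0.72 (exact permutation p = 0.0571 and adjusted p = 0.0635 for each), and Amot minus Amotl1 gave -0.11 (exact permutation p = 0.514, adjusted p = 0.514).

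**Figure D3:**
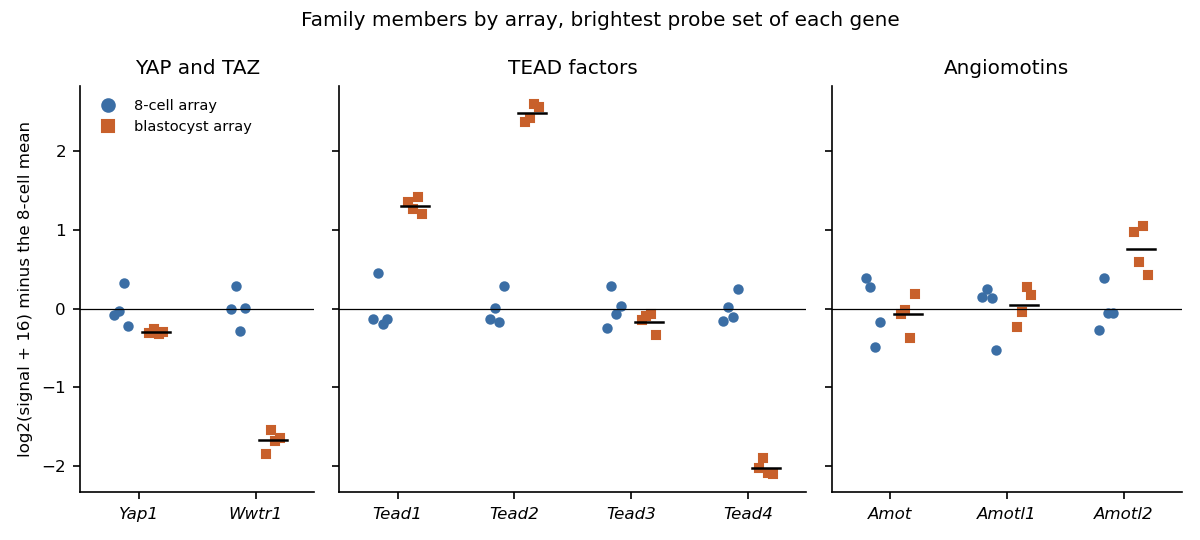
Each array's log2(signal + 16) minus the mean of the 4 8-cell arrays, for the brightest probe set of each gene in the YAP and TAZ, TEAD and angiomotin families; blue circles are 8-cell arrays, orange squares blastocyst arrays, short black lines the blastocyst mean and 0 the 8-cell mean. Tead2 (2.49) and Tead1 (1.31) move up, Tead4 (-2.03) and Wwtr1 (-1.68) down, and the arrays of both stages overlap for Amotl1 and Amot.

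The same exact permutation test, applied to the brightest probe set of a gene against each of its others, asked whether probe sets of 1 gene moved together. Of 8 pairs 5 passed (exact permutation p = 0.0286, adjusted p = 0.0457 over the 8 pairs). Here too each pass is at the smallest possible p and depends on the others reaching it. The share that would pass among probe sets of other genes was not computed, so the count cannot be called particular to these genes. The widest gap was within Wwtr1, where 1417817_a_at changed by -1.92 relative to 1417818_at, with a within-array SD of 0.07 in 8-cell embryos and 0.17 in blastocysts. Against 1437155_a_at the same probe set changed by 0.74. In Amot, the bright probe set changed by 1.23 relative to 1425907_s_at, and in Yap1 by 0.86 relative to 1416487_a_at. The 2 probe sets of Tead4 differed by less (-0.44) and fell on both. The 3 pairs that did not pass were those of Tead1 (0.29, exact permutation p = 0.0857, adjusted p = 0.098), Amot 1454890_at against 1427584_at (0.61, exact permutation p = 0.0571, adjusted p = 0.0762) and Amotl1 (-0.28, exact permutation p = 0.400, adjusted p = 0.400). The Tead1 pair passed with quantile scaling (0.50, exact permutation test, adjusted p = 0.0327) and with 64 added (0.35, adjusted p = 0.0381). That of Amot passed with quantile scaling (0.62, exact permutation test, adjusted p = 0.0327), spike-in scaling (0.70, adjusted p = 0.0381) and 1 added (0.97, adjusted p = 0.0381). In the platform's naming an ending of _a_at marks probes that fit several transcripts of a gene and _s_at probes that fit transcripts of several genes, so these readings need not come from the same transcripts. The arrays of the stages also differed in how evenly transcripts were read along their length. The 3' minus 5' difference of the Actb control probe sets averaged 2.42 ± 0.19 log2 units on the 8-cell arrays against 0.82 ± 0.11 on the blastocyst arrays. The Gapdh controls gave 2.32 ± 0.26 against 1.36 ± 0.11 (SD, n = 4 arrays). The part of this difference in the probe set gaps was not tested. Nor was its part in the stage difference of any single probe set, including those of Tead2, Vgll4 and Amotl2. For Yap1, Wwtr1 and Amot the size and the call of the change thus depend on the probe set, while Tead1 and Tead4 gave the same direction on each probe set.

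The kinases and upstream regulators that feed into YAP and TAZ changed in both directions, with more calls lower than higher on the deposited scale. Of 23 tested genes in that list 7 were higher, 13 lower and 3 did not pass, with a median of -0.40, beside 36.9% higher and 33.6% lower (70.5% called) and a median of 0.02 over the brightest probe sets of all 13274 tested genes. Lats2, a kinase of YAP, fell from 2585 ± 272 to 641 ± 173 (-2.02, SE 0.20), and its 4 other tested probe sets fell too (-1.53 to -0.94). Its relative Lats1 fell from 822 ± 151 to 263 ± 27.9 (-1.57, SE 0.17) and on its dimmer probe set by 0.69. Nf2, which encodes Merlin, the junction protein that brings LATS to angiomotin, fell from 3740 ± 662 to 1474 ± 100.4 (-1.32, SE 0.15). Of its other 3 probe sets, a pair fell (-1.81 and -1.61) and the last gave -0.53 (adjusted p = 0.126 by limma). In the other direction, Wwc1, encoding the LATS-binding scaffold KIBRA, rose from 343 ± 80.2 to 2308 ± 321 (2.71, SE 0.19). Ptpn14, a phosphatase that binds YAP, rose by 1.74 (SE 0.23), and its 2 other probe sets rose by 1.72 and 1.75. The 8-cell means of these other Ptpn14 probe sets were 21.45 and 13.55, under the 40th percentile of the 8-cell arrays (31.9 to 35.7). The size of their rises depends on the added constant, and they are not separate support. With spike-in scaling 7 genes of the list were higher and 8 lower. Over all 28227 tested probe sets that scaling gave 10469 higher and 6505 lower.

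Among nuclear partners and regulators of YAP, TAZ and TEAD, 9 of 18 tested genes rose, 6 fell and 3 did not pass (median 0.23). Over all tested genes at their brightest probe set 36.9% were higher and 33.6% lower (70.5% called, median 0.02). No test of the list as a set was run. Vgll3, which like Vgll4 encodes a TEAD cofactor, was near the 40th percentile in 8-cell embryos (36.5, 63.3, 1.5 and 46.4) and reached 1586, 1735, 2141 and 1492 in blastocysts. It rose by 5.23 (SE 0.41, limma adjusted p = 2.39e-06), so within the VGLL family Vgll3 and Vgll4 had opposite signs. Its other probe sets rose by 5.12 and 4.22. Their 8-cell means were 22.725 and 6.325, under the 40th percentile of the 8-cell arrays (31.9 to 35.7). The size of all these rises depends on the added 16, and the other probe sets are not separate support. Vgll1 was under the filter, with 2.1 to 27.1 in 8-cell embryos and 58.14, 6.419, 63 and 55.39 in blastocysts. Vgll2, named after its value was seen, fell by 0.99 (SE 0.25) from a low level. Zdhhc7, a palmitoyltransferase that modifies TEAD proteins, fell 6.66-fold, from 6016 ± 880 to 890.0 ± 129 (-2.73, SE 0.16). Runx1, a transcription factor that binds TAZ and YAP, rose by 2.09 (SE 0.25) from 69.8 ± 16.3, but 2 of its other probe sets did not pass (0.07 and 0.15).

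Of 15 tested partners and turnover factors of angiomotins 10 were higher, 3 lower and 2 did not pass (median 0.61). The shares over all tested genes were 36.9% higher and 33.6% lower (70.5% called, median 0.02). No test of this list as a set was run, so the count is not read as a common rise. Patj, a polarity scaffold that binds angiomotins, rose from 51.7 ± 12.2 to 1297 ± 145 (4.29, SE 0.17), although its probe set 1440737_at gave -0.23 (limma adjusted p = 0.159). Magi3, a scaffold of junctions, rose by 3.51 (SE 0.19), and one of its dim probe sets gave 0.52 (limma adjusted p = 0.101). Nedd4, a ubiquitin ligase that marks angiomotins for degradation, rose by 2.44 (SE 0.16) and by 1.97 and 3.97 on its other probe sets. Pals1, the partner of Patj (listed as Mpp5 in the platform's annotation and named after its value was seen), rose by 2.17 (SE 0.15), while its probe set 1421064_at fell by 0.57. The 3 lower genes (named with their values known) were Mpdz (-1.75, SE 0.21), a relative of Patj, Rhoa (-0.70, SE 0.13), a small GTPase of the actin skeleton, and Ezr (-0.49, SE 0.16), which encodes the membrane-actin linker ezrin. The other Ezr probe set, 1450850_at, rose by 3.80 (SE 0.17), so the direction of Ezr depends on the probe set. With spike-in scaling 10 genes of the list were higher and 1 was lower, and 61.7% of the calls over all probe sets were higher.

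Genes described as targets of YAP and TEAD changed in both directions. Of 24 tested genes, which include the 3 angiomotin genes and 4 genes that also stand in the kinase list (Lats2, Nf2, Ajuba and Ptpn14), 7 were higher, 7 lower and 10 did not pass (median 0.06). Of those called, 5 were above the 40th percentile on at most 1 array of their lower stage (Myof and Fjx1 among the higher, Tgfb2, Igfbp3 and Crim1 among the lower, named with their values known). They passed the filter through the stage where they were high and so had to differ, and the counts support nothing about the list. The trophectoderm factors of the list rose, Gata3 from 217 ± 45.3 to 9130 ± 1123 (5.30, SE 0.17) and Cdx2 from 627 ± 66.7 to 8768 ± 324 (3.78, SE 0.13). Myof, encoding the membrane protein myoferlin, rose from 6.08 ± 2.20 to 1040 ± 234 (5.56, SE 0.18). Its 8-cell arrays were all under the 40th percentile, so that size depends on the added 16, and its other probe set was under the filter at both stages. Ccn2 and Ccn1, secreted matricellular proteins widely used as YAP target genes in cultured cells, did not rise. Ccn2 gave 1035, 1324, 814.4 and 700.3 in 8-cell embryos and 449, 422.3, 404.4 and 494.6 in blastocysts, and fell by 1.06 (SE 0.20, limma adjusted p = 0.000914). For Ccn1 the stages overlapped (774 ± 128 and 592 ± 96.4), and the difference of -0.38 (SE 0.18, limma adjusted p = 0.0832) did not pass, though it did with quantile scaling (-0.62, adjusted p = 0.0096) and without 8-cell replicate 1 (-0.48, adjusted p = 0.039). Tfap2c, which encodes the AP-2 factor that the series is about, fell on its 3 probe sets (-1.28, -0.71 and -1.04).

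**Figure D4:**
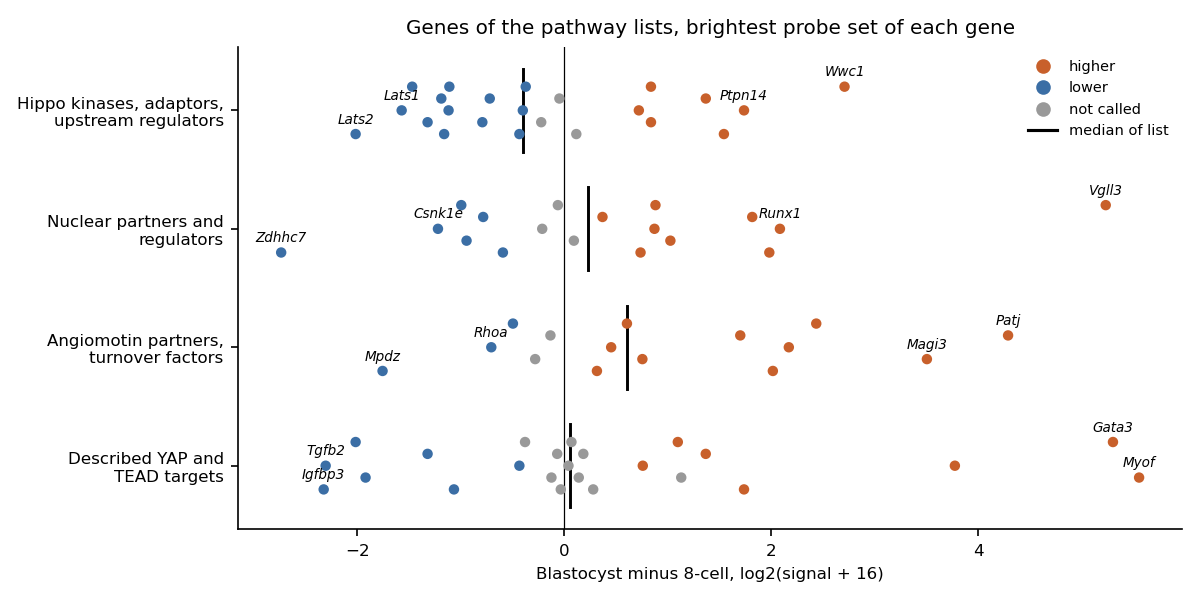
Blastocyst minus 8-cell differences (log2 scale) of the tested genes in the 4 pathway lists, each at its brightest probe set; orange points were higher, blue lower and grey not called, and black bars are the list medians (-0.40, 0.23, 0.61 and 0.06 from top to bottom). The 2 lowest and the 2 highest genes of each list are named.

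Probe sets of other genes with the most similar pattern were found as the smallest root mean square distance over the 8 arrays between mean-centred log2 values, which here mostly reflects the stage difference. Among 22903 candidate probe sets (22902 for Wwtr1 and Amot) the closest to the brightest Tead4 probe set were Ccdc86 (distance 0.07), Baz2a (0.08) and Wars2 (0.08), with differences of -2.04, -1.98 and -1.99. For Yap1 the closest were Mdh2, Gdi2 and Rrm2 (0.06 each). Tiprl, Ubtf and Bclaf1 (0.10 each) were closest to Wwtr1. The bright Amot probe set had no neighbour as near after Pde12 (0.11), the next being Orai1 and Mindy3 (0.14 each).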

How the data were processed

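Per the labels' protocols, RNA of whole embryos was isolated with a small-sample kit, amplified with a small-sample labelling assay and hybridised as biotin-labelled RNA. The authors deposited linear signal intensity, scaled so that, as the values show, each array has a mean of 500 after removal of the outer 2% at each end. The software and annotation behind the signals are not given in the sources used here. All 8-cell values carry at most 1 decimal, against under 0.4% of blastocyst values, so any difference in handling and the stage cannot be told apart. The members and lists were chosen with earlier results of these data known.

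Values became log2(signal + 16), and the 64 control probe sets were left out. Probe sets above the array's 40th percentile on at least 4 of 8 arrays, 28227 in all, were compared with limma (lmFit, eBayes, Benjamini-Hochberg over all of them, threshold 0.05), blastocyst minus 8-cell, with no covariates. Folds are 2 to the power of that difference and understate changes of dim probe sets. The number of arrays limits the precision. Gene symbols came from the platform's annotation: those with a single symbol numbered 34945, with several 932 and with none listed here 9160. List genes were read at their brightest probe set (highest mean), and 7 of 161 listed names matched none. Named genes were all members, the 3 called genes with the largest differences in each of 4 lists, and 9 fixed genes (Cdx2, Gata3, Lats1, Lats2, Nf2, Ccn1, Ccn2, Vgll1, Tfap2c). Protein sequences were not used here. Scripts were tested on simulated data. Alternatives were other scalings, added constants, filters, variance models, a replicate block, fewer probe sets and leaving out each array. Tools were R 4.3.3, limma 3.58.1, Python 3.11.15 and matplotlib 3.10.9.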

Additional observations from a re-analysis of the deposited data

Results flagged for a closer look

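In 38 sets of 4 values (19 probe sets at each stage) 3 had an array whose gap to the nearest other exceeded Dixon's 95% critical value, and chance flags about 1 in 20. For Tead1 on 1429556_at, 8-cell replicate 2 gave 1472 against 938 to 982.9 on the others. For Amotl1 on 1428785_at, 8-cell replicate 4 gave 53.4 against 94.4 to 102.7. For Amotl1 on 1431121_at, which was under the filter, blastocyst replicate 1 gave 5.055 against 16.79 to 19.84. Without 8-cell replicate 2 the Tead1 difference was 1.46 (limma adjusted p = 1.85e-05), and without 8-cell replicate 4 the Amotl1 difference was -0.13 (limma adjusted p = 0.481).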

How the results depend on the processing

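Over 20 alternatives, 4 members were called higher and 7 to 9 lower, except with only the brightest probe set of each gene (3 higher and 3 lower, since fewer probe sets were tested) and without probe sets ending in _x_at, _s_at or _a_at (3 higher and 3 lower). The first of these gave 4978 higher and 4539 lower of 13274 tested overall. The second gave 18 higher and 13 lower genes in the pathway lists, against 32 and 26. Leaving out 1 array in turn gave 8917 to 9300 higher and 8642 to 9089 lower probe sets, 4 members higher and 8 to 9 lower, and 29 to 32 higher and 22 to 26 lower list genes. Spike-in scaling moved the median of all probe sets from -0.01 to 0.22 and the share of calls that were higher from 50.6% to 61.7%.

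Signs reversed only for differences that had not passed, and the cause was not tested. Amot 1454890_at gave 0.0212 with quantile, 0.0109 with median and 0.20 with spike-in scaling. Leaving out 1 array gave it -0.232 to 0.0614, above 0 without 8-cell replicate 1, 8-cell replicate 2 or blastocyst replicate 3. Tead3 gave 0.078 with spike-in scaling. Amotl1 1428785_at gave -0.134 to 0.135 when 1 array was left out, below 0 without 8-cell replicate 4, blastocyst replicate 3 or blastocyst replicate 4. Amot minus Amotl1 gave 0.0039 with quantile scaling and -0.32 to 0.0672 when 1 array was left out, above 0 without 8-cell replicate 4 or blastocyst replicate 3. Amotl1 minus Amotl2 passed with 64 added (-0.71, exact permutation test, adjusted p = 0.0357). Of the 8 pairs of probe sets of 1 gene, 5 passed, against 7 with quantile scaling and 6 with spike-in scaling, 1 added or 64 added, as the Tead1 or Amot pairs gained a call. Replicate numbers did not pair the arrays (correlation of deviations -0.03 to -0.01), and with a replicate block 9263 probe sets were higher and 8921 lower, with 4 and 8 members.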

Other observations

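The Ywha genes encode phosphoserine-binding adaptors, which hold phosphorylated YAP in the cytoplasm, and the 6 of them in the list of nuclear partners and regulators were split. At the brightest probe set Ywhaz rose by 1.03 (SE 0.14), Ywhah by 0.87 (SE 0.12) and Ywhae by 0.37 (SE 0.13), while Ywhaq fell by 0.78 (SE 0.14) and Ywhag fell by 0.59 (SE 0.14). Ywhab gave 0.09 (SE 0.13, limma adjusted p = 0.538). Probe sets of 1 gene went both ways, among them Ywhaz 1436981_a_at, which fell by 1.35, Ywhaq 1420829_a_at, which rose by 0.73, and Ywhab 1420878_a_at (-0.55) and 1420879_a_at (0.89).

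Among the turnover factors of angiomotins, Tnks, a tankyrase that marks them for degradation, rose by 1.70 (SE 0.14) at its brightest probe set, though 1459910_at fell by 1.11. Its relative Tnks2 gave -0.13 (SE 0.12, limma adjusted p = 0.361) at its brightest probe set and fell on its other 2 (-2.60 and -2.38). Rnf146, the ubiquitin ligase that reads the tankyrase mark, rose by 0.61 (SE 0.18). The ligase Itch rose by 0.32 (SE 0.12) but fell on 2 dimmer probe sets (-1.08 and -0.69). Arhgap17, encoding a junction protein that binds angiomotin, rose on its 3 probe sets, by 2.02, 0.79 and 2.66. These genes were named after their values were seen.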
